A study of Mus musculus with 9 samples.

Results

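The 39 genes described here encode subunits of the receptors through which retinal neurons read glutamate, GABA and glycine. They were taken by gene symbol from the 55487 genes of a bulk RNA-seq table of mouse retina, and comprise 4 AMPA, 4 kainate, 6 NMDA and 1 delta glutamate subunit, 6 metabotropic glutamate receptors, 9 GABA-A, 3 GABA rho and 2 GABA-B subunits and 4 glycine receptor subunits. Each of the 39 reached at least 0.5 CPM (read counts scaled to a common library total) in at least 3 libraries and was tested, as were 21330 genes in all. Glutamate carries the signal from photoreceptors to bipolar cells and on to amacrine and ganglion cells, while GABA and glycine carry the inhibitory signals of horizontal and amacrine cells. Ionotropic receptors are assembled from several subunits around an ion channel, so the mix of subunits sets how a receptor responds. Metabotropic receptors act through G proteins. The GABA rho subunits form the slow GABA-C type receptors of bipolar cell axon terminals.

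Whole retinas of C57 BL/6J mice at postnatal day 21 (P21) were compared across 3 genotypes with 3 libraries each. The Cre- animals, labelled WT, carried no Cre. tHet animals were heterozygous for floxed alleles of Tet1, Tet2 and Tet3 and Tet tcKO animals were homozygous for them, and both carried the Chx10::Cre-GFP transgene, which is active in retinal progenitors. Each library pooled the retinas of 2 animals. The Cre+ genotypes were bred by crossing Cre+ animals with each other and Cre- animals came from Cre- breeders, so for Cre- against the other genotypes, breeding line and genotype cannot be told apart. Total RNA was depleted of ribosomal RNA before stranded library preparation. Since these are whole retinas, fewer cells of a type and less RNA per cell cannot be told apart in any value below.

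Reads counted on genes numbered 14813873 to 16987479 per Cre- library, 9627927 to 21108256 per tHet library and 15176156 to 16840792 per Tet tcKO library. Libraries differed in 1 respect that touches every value below: the ribosomal RNA gene CT010467.1 held 28.7% of the reads of Tet tcKO replicate 3 and 3.72% of tHet replicate 3, against 0.0409% to 0.226% in the other 7 libraries. CPM are shares of a library, so all other genes read lower in Tet tcKO replicate 3. With that gene left out of the totals, the median log2 fold change (log2FC) of all tested genes in Tet tcKO versus Cre- was 0.14 in place of 0.00. Both scalings are therefore given where they change a result. The counts for Tet1, Tet2 and Tet3 include exons that recombination leaves in place, and so do not check the labels: in Cre-, tHet and Tet tcKO, in turn, they ranged from 51.7 to 57.6, 37.3 to 68.2 and 51.0 to 74.9 CPM for Tet1, from 113 to 188, 117 to 226 and 152 to 221 CPM for Tet2, and from 213 to 268, 155 to 288 and 99.2 to 152 CPM for Tet3. Photoreceptor markers were high in the Cre- libraries (8 rod markers summed to between 17765 and 19949 CPM), whereas the 4 lens markers summed to between 3.71 and 10.3 CPM.

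In Tet tcKO retinas the GABA rho subunits Gabrr1 and Gabrr3 and the glycine receptor subunit Glra1 were below both control genotypes and the rho subunit Gabrr2 was below Cre-, whereas the metabotropic receptor Grm7 and the NMDA subunit Grin3a were higher than in Cre-. For most of the other subunits the difference did not pass the test. A difference was called where the adjusted p was below 0.01 and the absolute log2FC was 1 or more (limma on log2(CPM + 0.5), adjusted over all 21330 genes). In Tet tcKO versus Cre-, 3 of 39 members were called lower, Gabrr1, Gabrr3 and Glra1, where 1.57% of all tested genes were, and 0 were called higher, where 2.03% of all tested genes were. At an adjusted p under 0.05 with no fold threshold, the rule by which members are said below to have risen or fallen, 4 fell (2.98% of all genes) and 2 rose (3.53% of all genes). The unadjusted p was under 0.05 for 15 of the 39, 9 of them higher and 6 lower in Tet tcKO (8.59% and 7.47% of all genes). Over the 39 members the median log2FC was 0.18, beside 0.00 over all genes, with 23 above 0 and 16 below.

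**Figure D1:**
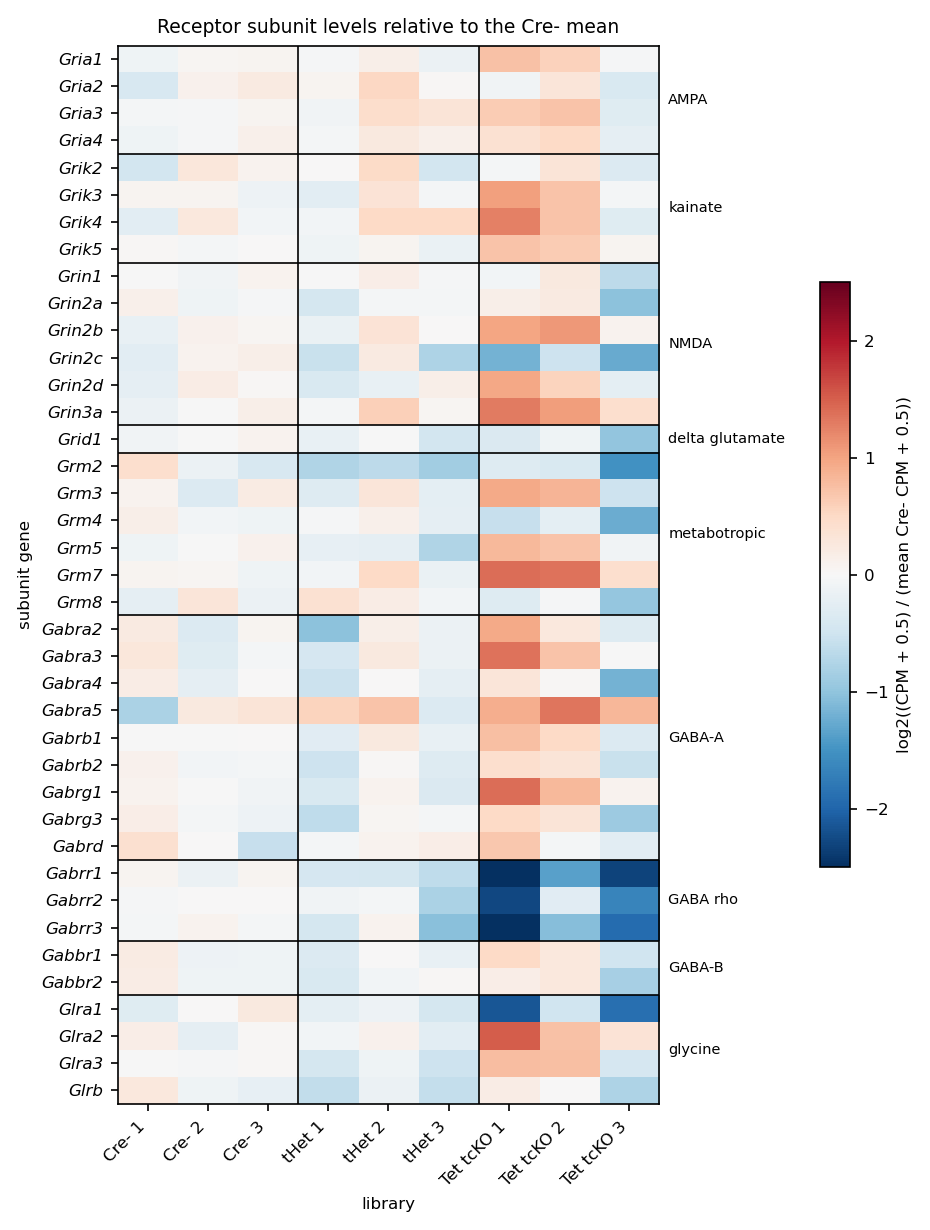
Colour gives the log2 ratio of each library's CPM to the Cre- mean (0.5 added to both, colour range limited to 2.5 in either direction) for the 39 members in rows, grouped by receptor class, and the 9 libraries in columns. The GABA rho rows and Glra1 are the darkest blue in Tet tcKO replicates 1 and 3, whereas Gabrr2 and Glra1 are pale in replicate 2. Tet tcKO replicate 3 is paler or bluer than its fellow libraries across most rows.

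The split between rises and falls depended on the ribosomal RNA gene. Without CT010467.1 in the totals, 11 members rose and 3 fell in Tet tcKO versus Cre- (7.42% and 2.79% of all genes), of which 2 were called higher and 1 lower (2.85% and 1.03% of all genes). The 11 were Gria1, Grik3, Grik5, Grin2b, Grin3a, Grm5, Grm7, Gabra3, Gabra5, Gabrg1 and Glra2, and the 3 were Gabrr1, Gabrr3 and Glra1. The median log2FC of the members was then 0.33, beside 0.14 over all genes. Without Tet tcKO replicate 3 altogether, 12 members rose and 2 fell (4.55% and 1.65% of all genes), with 2 called higher and 0 lower (1.38% and 0.453%). TMM scaling gave 7 rises and 5 falls (5.19% and 4.2% of all genes).

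Tet tcKO was also set against tHet, the genotype that shares the Cre transgene. Here 1 member, Gabrr1, was called lower (1.61% of all genes) and 0 were called higher (1.39%). At an adjusted p under 0.05, 3 fell (3.43% of all genes), namely Gabrr1, Gabrr3 and Glra1, and 3 rose (2.52%), namely Grm5, Grm7 and Gabrg1. Without CT010467.1 in the totals, 11 rose and 1 fell (5.93% and 2.96% of all genes). Of these, 4 were called higher, Grm5, Grm7, Gabrg1 and Glra2, and 0 lower (1.98% and 0.999%). The 11 were Gria1, Grik3, Grik5, Grin2b, Grin3a, Grm5, Grm7, Gabra3, Gabrg1, Glra2 and Glra3. Both comparisons rest on the same 3 Tet tcKO libraries and so do not test the members independently.

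All 3 Tet tcKO libraries lay below all 6 control libraries for 4 members, Grm4, Gabrr1, Gabrr3 and Glra1 (4.82% of all genes did so), and above all 6 for 3 members, Gabra5, Gabrg1 and Glra2 (5.32%). Without CT010467.1 in the totals the same 4 lay below (4.33% of all genes), and 14 lay above (13.8%). With 3 libraries against 3, the smallest two-sided p that an exact permutation test can give is 0.1.

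**Figure D2:**
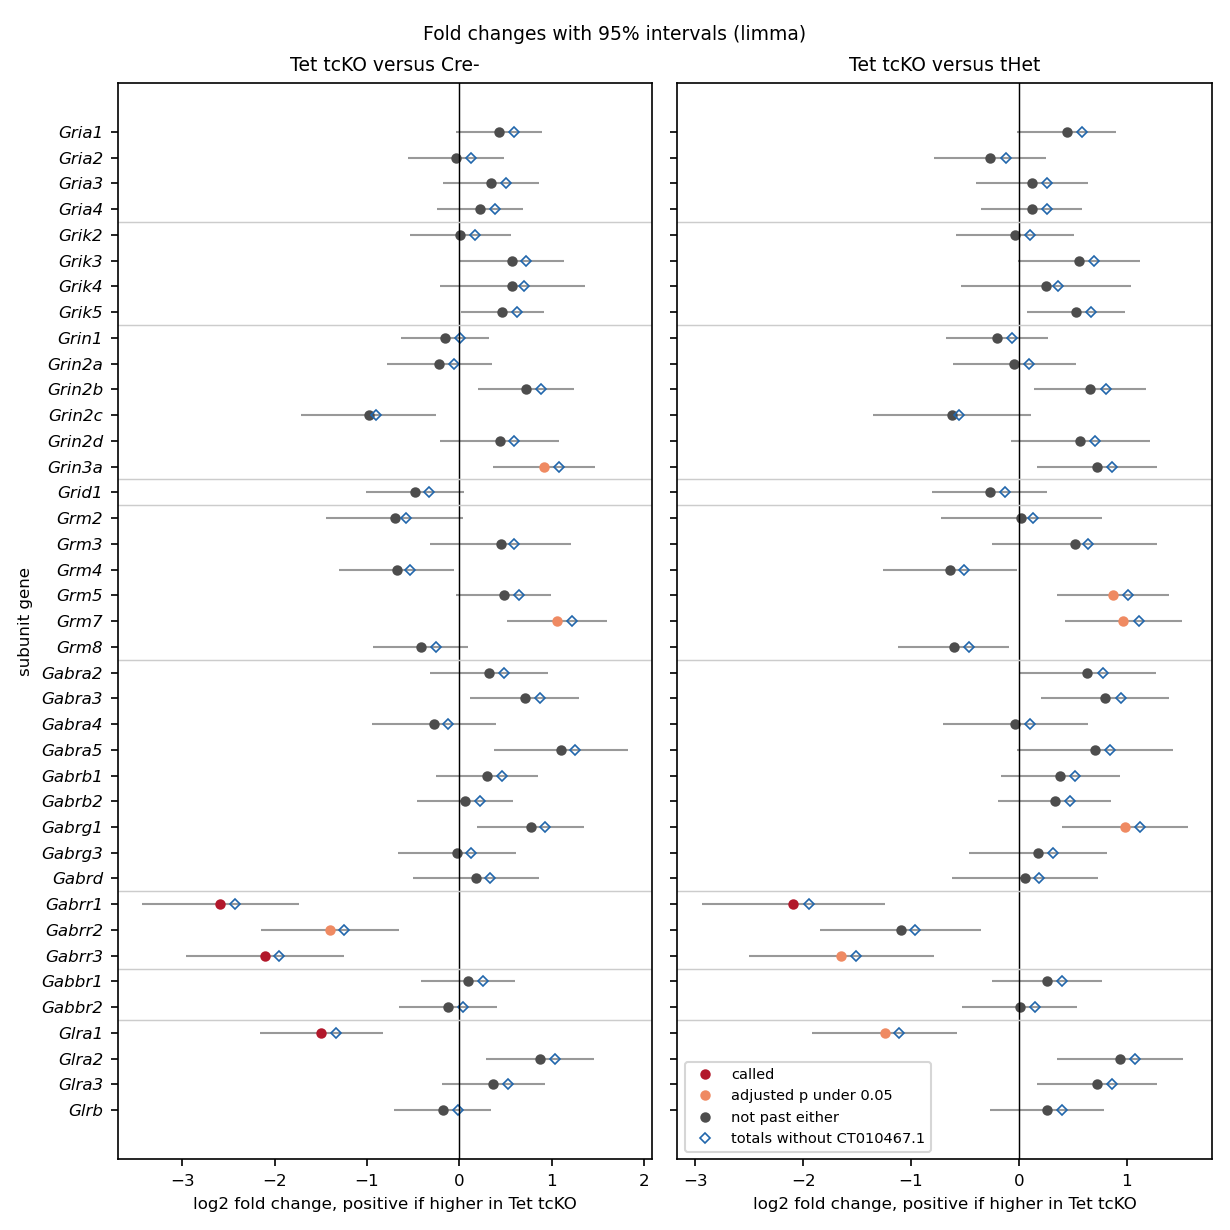
Points give the log2FC of each member in Tet tcKO versus Cre- (left) and versus tHet (right) with 95% intervals from limma, coloured by whether the member was called or passed an adjusted p of 0.05, and open diamonds give the log2FC with CT010467.1 left out of the totals. The GABA rho subunits and Glra1 stand to the left of 0 under both scalings, and leaving out CT010467.1 moves most other members to the right.

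Gabrr1 encodes the rho 1 subunit, which can form a GABA-gated chloride channel on its own. It lies next to Gabrr2 on chromosome 4 (Gabrr1 at chr4:33132521-33163588 and Gabrr2 at chr4:33062999-33095865, both on the plus strand of GRCm38), with 69522 bases between their starts. Gabrr3 is on chromosome 16 (chr16:59407332-59464504, plus strand). Since these members moved together, and the deleted enzymes act on methylated cytosine that stands mostly before guanine, the RefSeq sequence upstream of their starts is shown with that of Grm7, the member with the smallest adjusted p among the rises. Each runs 5′ to 3′ on the plus strand of GRCm38.p6, begins 250 bases before the RefSeq start and stops before the earlier GENCODE start. Capitals mark each CG and, in Gabrr2, the letters GGATTA, the reverse complement of TAATCC, a motif that homeodomain factors of photoreceptors and bipolar cells are known to bind. The stretches are chr4:33132306-33132520 (Gabrr1), chr4:33062862-33062998 (Gabrr2), chr16:59407132-59407331 (Gabrr3) and chr6:110645348-110645580 (Grm7).
Gabrr1: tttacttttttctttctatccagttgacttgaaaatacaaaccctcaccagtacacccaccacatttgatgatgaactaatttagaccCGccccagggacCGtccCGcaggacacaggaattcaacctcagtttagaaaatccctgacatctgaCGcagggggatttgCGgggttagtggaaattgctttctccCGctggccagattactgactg
Gabrr2: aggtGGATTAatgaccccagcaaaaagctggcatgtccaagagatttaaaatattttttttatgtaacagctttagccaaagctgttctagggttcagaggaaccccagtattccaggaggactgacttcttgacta
Gabrr3: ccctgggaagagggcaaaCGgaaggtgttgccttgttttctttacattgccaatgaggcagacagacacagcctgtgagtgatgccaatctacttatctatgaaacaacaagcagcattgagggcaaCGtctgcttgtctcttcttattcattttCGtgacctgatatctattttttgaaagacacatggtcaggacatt
Grm7: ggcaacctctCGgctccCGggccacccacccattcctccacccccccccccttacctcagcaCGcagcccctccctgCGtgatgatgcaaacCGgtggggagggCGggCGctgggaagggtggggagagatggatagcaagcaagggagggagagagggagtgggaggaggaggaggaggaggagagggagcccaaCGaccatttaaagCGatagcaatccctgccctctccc

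In the full 250 bases before the RefSeq start, Gabrr1 held 7 CG, Gabrr2 held 1, Gabrr3 held 3 and Grm7 held 9. The median was 6 over the 32851 windows of the same length in the RefSeq table and 12 over the 29 members matched there, which ranged from 0 (Gabra3) to 42 (Grik3). The 3 rho windows were thus among the CG-poor members but not unusual among all genes, since 57.0% of all windows held 7 CG or fewer. Gabra3 with 0 CG, Gabrg1 with 1 and Glra3 with 4 were CG-poor too, and their log2FC versus Cre- were above 0. TAATCC, searched on both strands, was present in 2 member windows, Gabra2 and Gabrr2, and in 6.25% of all windows. A match of letters describes the window and does not show that a factor binds there. Glra1 was not among the matched members. No methylation values were used here, and the part of methylation in these levels was not tested.

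Gabrr1 was the most abundant of the 39 members per kilobase of exon in Cre- retinas, at 69.6 ± 6.01 CPM per kb (SD, n = 3), 21.7% of the summed level of the members. The length counts the exons of all annotated transcripts, 2.286 kb for Gabrr1 and 15.548 kb for Gria2. The rank depends on it, since Gria2 (317 CPM) and Gria4 (173 CPM) averaged more than any Cre- value of Gabrr1. In Tet tcKO the rank of Gabrr1 was 7, at 14.8 ± 11.6 CPM per kb. Its level was 167, 143 and 167 CPM in the Cre- libraries, 119, 117 and 102 in tHet and 8.85, 61.6 and 31.4 in Tet tcKO, in order of replicate number. All 3 Tet tcKO libraries lay below all 6 controls, and they differed widely among themselves. The log2FC was −2.59 (SE 0.41, 95% interval −3.44 to −1.74, adjusted p = 0.000308) versus Cre- and −2.09 (SE 0.41, adjusted p = 0.00262) versus tHet. Without Tet tcKO replicate 3 the first was −2.72 with an adjusted p of 0.0177 and the second −2.23 with 0.0474, so that neither was called. The second was also not called without CT010467.1 in the totals (adjusted p = 0.0311), under TMM scaling (0.0231), by edgeR (0.0418) or with no filter on low values (0.025).

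Gabrr3 encodes the rho 3 subunit. Levels were 20.4, 22.2 and 20.3 CPM in Cre-, 15.3, 22.3 and 9.90 in tHet and 1.60, 9.82 and 5.18 in Tet tcKO, where no library reached the lowest control, although Tet tcKO replicate 2 and tHet replicate 3 were nearly level. It fell by 2.11 on the log2 scale versus Cre- (SE 0.41, adjusted p = 0.00229) and by 1.64 versus tHet (SE 0.41, adjusted p = 0.0179). The adjusted p versus Cre- rose above 0.01 without Tet tcKO replicate 1 (0.0183, log2FC −1.48), without Tet tcKO replicate 3 (0.0381), without CT010467.1 (0.0205), by edgeR (0.016) and with no filter on low values (0.0169). Versus tHet it was above 0.05 without tHet replicate 1 (0.0535) or 2 (0.0919), without Tet tcKO replicate 1 (0.154) or 3 (0.0963), without CT010467.1 (0.0694), by edgeR (0.0715) and with no filter (0.0757). The 1700022E09Rik gene overlaps exons of Gabrr3 on the other strand.

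Gabrr2, which encodes the rho 2 subunit, measured 24.8, 25.8 and 25.8 CPM in Cre-, 23.9, 24.7 and 14.5 in tHet and 4.87, 20.9 and 7.77 in Tet tcKO. Tet tcKO replicate 2 was close to the Cre- level and above 1 tHet library, while the other Tet tcKO libraries were well below all controls. Gabrr2 fell versus Cre- (log2FC −1.40, SE 0.36, adjusted p = 0.0193) and did not pass versus tHet (log2FC −1.10, SE 0.36, adjusted p = 0.0842). Its adjusted p versus Cre- was 0.178 without Tet tcKO replicate 1, 0.145 without Tet tcKO replicate 3, 0.063 without Cre- replicate 3, 0.0613 without CT010467.1, 0.0525 by edgeR and 0.0763 with no filter on low values.

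Glra1 encodes the alpha 1 glycine receptor subunit, the main alpha subunit of adult glycinergic synapses (chr11:55514238-55608198, minus strand). The libraries read 24.8, 30.6 and 36.3 CPM in Cre-, 25.9, 27.9 and 22.5 in tHet and 6.59, 21.4 and 7.89 in Tet tcKO. Again Tet tcKO replicate 2 came nearest to the controls and no Tet tcKO library reached them. Glra1 fell by 1.49 on the log2 scale versus Cre- (SE 0.32, adjusted p = 0.00532) and by 1.24 versus tHet (SE 0.32, adjusted p = 0.023). Its call versus Cre- was lost without Tet tcKO replicate 1 (adjusted p = 0.0625), Tet tcKO replicate 3 (0.0744), Cre- replicate 3 (0.0378) or CT010467.1 (0.0191), by edgeR (0.0129) and with no filter (0.0271). Versus tHet the adjusted p was above 0.05 without tHet replicate 1 (0.0783) or 2 (0.0758), without Tet tcKO replicate 1 (0.202) or 3 (0.145), without CT010467.1 (0.0513), by edgeR (0.0519) and with no filter (0.0799). Gm12236 overlaps Glra1 exons on the other strand.

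On the deposited scale, the order of the Tet tcKO libraries set these 4 members apart from the other 35. The order was not counted over all tested genes, so how common it is there cannot be told. Gabrr1, Gabrr2, Gabrr3 and Glra1 were lowest in Tet tcKO replicate 1 and highest in replicate 2, whereas the other 35 members were lowest in replicate 3, the library rich in ribosomal RNA. Without CT010467.1 in the totals, 8 members were lowest in replicate 1, these 4 with Gria2, Grik2, Grin2c and Gabra5. The latter 4 were also highest in replicate 2, so on that scale the order was not particular to the rho subunits and Glra1. The spread between Tet tcKO libraries is thus not the same for all subunits.

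**Figure D3:**
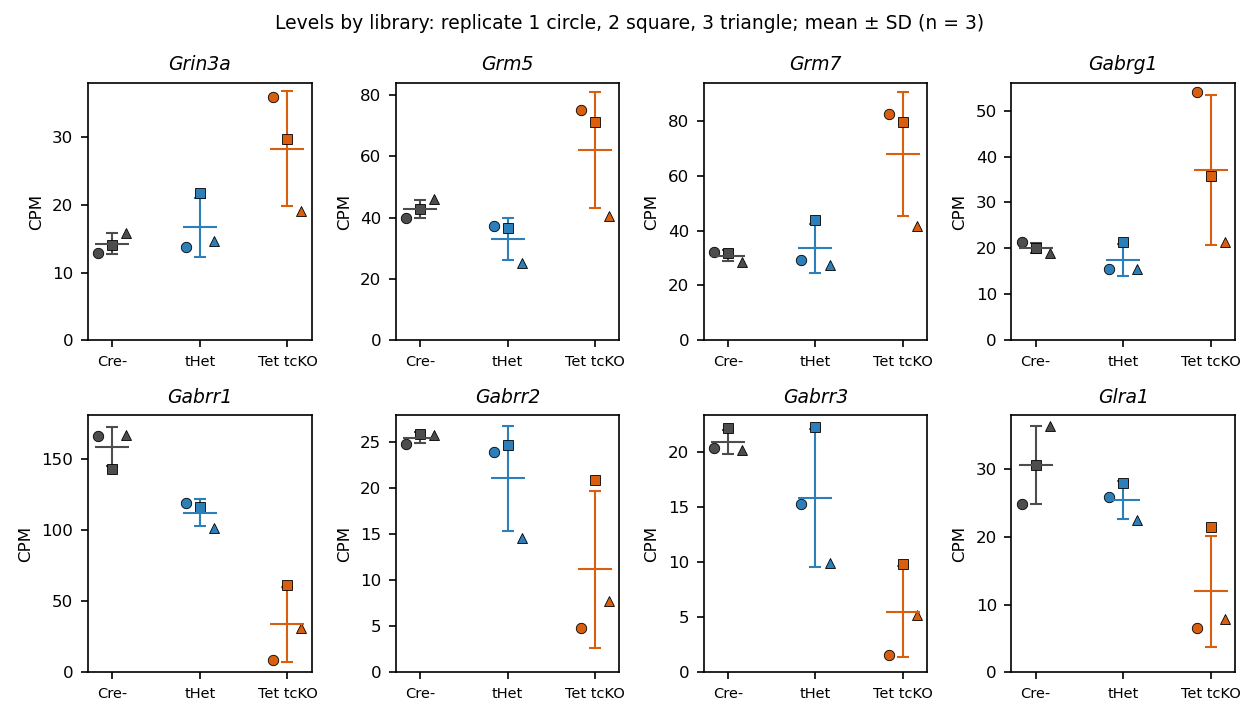
Each panel plots CPM on a linear axis from 0 in the 9 libraries for the 8 members that passed an adjusted p of 0.05 in a Tet tcKO comparison, with bars for the mean ± SD (n = 3) and circles, squares and triangles for replicates 1, 2 and 3. In the lower row the Tet tcKO circle is lowest and the square highest, and in the upper row the Tet tcKO triangle is lowest.

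Bipolar cell markers were examined beside the rho subunits because bipolar cells are known to carry rho receptors. Of 9 bipolar markers, 3 were called lower in Tet tcKO versus Cre-, Trpm1, the channel opened at rod and ON cone bipolar dendrites (log2FC −2.16, adjusted p = 0.00746), Car8 (−2.43, adjusted p = 0.000166) and Prkca, a rod bipolar kinase (−1.34, adjusted p = 0.0031). Pcp2 also fell (−1.57, adjusted p = 0.0118), and Cabp5 was called higher (1.76, adjusted p = 0.000119). Scgn, Isl1, Gng13 and Vsx1 did not pass, with log2FC of −0.42, −0.52, −0.74 and −0.04. Summed over the 9 markers, levels were 1631 to 1923 CPM in Cre-, 1178 to 1834 in tHet and 967 to 1713 in Tet tcKO, so the sums overlapped. Trpm1 and Car8 had the largest falls of the 9. In Tet tcKO replicates 1, 2 and 3, Trpm1 read 39.1, 378 and 169 CPM and Car8 read 11.0, 56.4 and 26.5 CPM. That was the same order as the rho subunits, and the order of the other bipolar markers is not given here. The part of bipolar cell number in the lower rho and Glra1 levels was not tested.

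**Figure D4:**
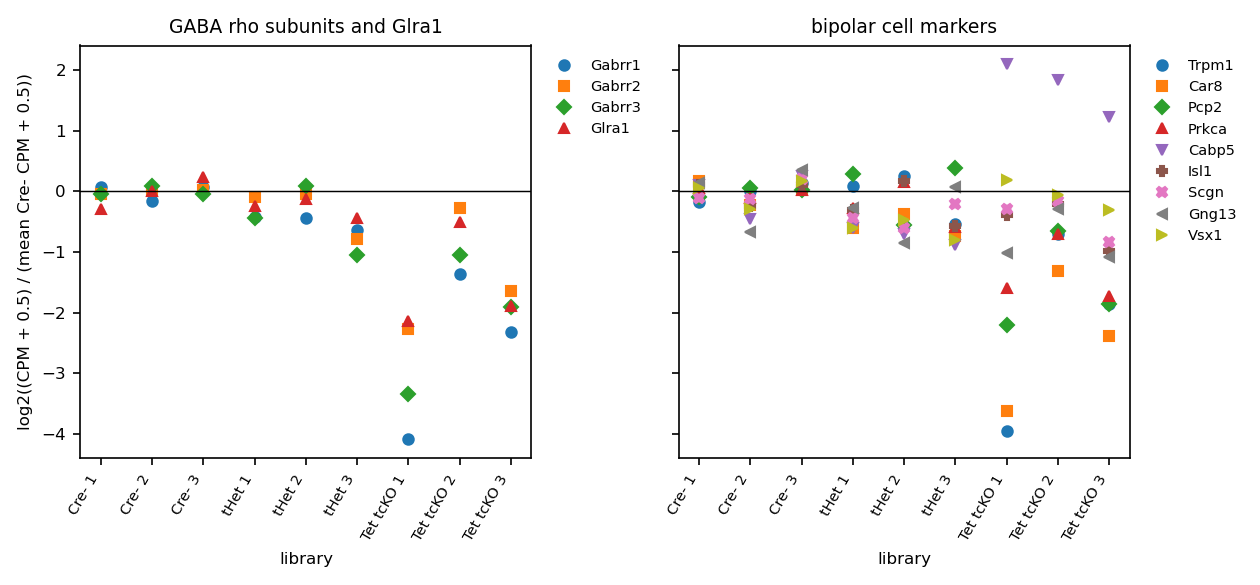
The log2 ratio of each library's CPM to the Cre- mean (0.5 added to both) is plotted for the GABA rho subunits and Glra1 (left) and for 9 bipolar markers (right), by library. In Tet tcKO replicate 1 the rho subunits, Glra1, Trpm1, Car8 and Pcp2 all lie below −2, while Cabp5 lies above 1 in all 3 Tet tcKO libraries.

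Of 8 rod markers, 6 were called lower in Tet tcKO versus Cre-, with log2FC from −3.55 to −0.28 over the 8. Gnat1, the rod transducin, read 258, 1543 and 659 CPM in Tet tcKO replicates 1, 2 and 3. Pde6a, the rod phosphodiesterase, read 94.7, 742 and 310 CPM. Gnat1 and Pde6a thus had the same order as the rho subunits, and the order of the other rod markers is not given here. The 9 cone markers included 7 called higher and 0 called lower, and they summed to between 517 and 637 CPM in Cre- against 1764 to 2746 CPM in Tet tcKO. The sums of the markers of amacrine cells, which release GABA or glycine, overlapped at 576 to 809 CPM in Cre- and 367 to 749 CPM in Tet tcKO, with C1ql1 called lower and Tfap2c and Calb2 lower at an adjusted p under 0.05 among 9. Of the amacrine markers, 4 had a log2FC above 0 and 0 rose. Horizontal and ganglion markers gave 0 calls among 5 and 9, although 1 ganglion marker rose and 1 fell. Of 7 Müller glia markers 1 was called higher and 1 lower, and of 8 microglia markers 1 was called higher. Astrocyte, endothelium and lens markers gave 0 calls. Pigment epithelium markers, 2 of 5 called lower, summed to 33.3 to 142 CPM in Cre- and 20.1 to 29.7 CPM in Tet tcKO. Their part in the receptor values was not tested.

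Metabotropic glutamate receptors split by member. Grm7, a presynaptic group III receptor (chr6:110645581-111567230, plus strand), read 32.1, 31.7 and 28.6 CPM in Cre-, 29.4, 43.7 and 27.5 in tHet and 82.4, 79.5 and 41.7 in Tet tcKO. All Tet tcKO libraries were above all Cre- libraries, and 1 of them, replicate 3, was below the highest tHet library. Grm7 rose versus Cre- (log2FC 1.06, SE 0.26, adjusted p = 0.0137) and versus tHet (0.97, SE 0.26, adjusted p = 0.028). It was called versus Cre- without CT010467.1 (log2FC 1.22, adjusted p = 0.00152), where Tet tcKO replicate 3 read 58.5 CPM and no longer overlapped tHet. The adjusted p versus Cre- was above 0.05 without Tet tcKO replicate 1 (0.115), Tet tcKO replicate 2 (0.0686) or Cre- replicate 3 (0.0723), and that versus tHet without tHet replicate 1 (0.14) or Tet tcKO replicate 1 (0.202) or 2 (0.097) and with no filter on low values (0.0807). Gm20387 overlaps Grm7 exons on the other strand.

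Grm5, a group I receptor that couples to phospholipase C (chr7:87584168-88134907, plus strand), read 40.0, 42.7 and 46.0 CPM in Cre-, 37.2, 36.8 and 25.2 in tHet and 75.1, 71.1 and 40.4 in Tet tcKO. Both Tet tcKO replicates 1 and 2 exceeded all controls and replicate 3 was within the Cre- range. The rise versus tHet passed (log2FC 0.87, SE 0.25, adjusted p = 0.0398), where every tHet library lay below every Tet tcKO and every Cre- library, and the difference from Cre- did not (0.48, SE 0.25, adjusted p = 0.363). The rise versus tHet was not past 0.05 when any of 6 libraries was left out, Cre- replicate 3 (adjusted p = 0.0613), tHet replicates 1, 2 or 3 (0.0769, 0.0539 and 0.0977) or Tet tcKO replicates 1 or 2 (0.247 and 0.121), nor with no filter on low values (0.099).

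Grm2, a group II autoreceptor, read 7.12, 4.64 and 3.85 CPM in Cre-, 2.88, 3.12 and 2.61 in tHet and 4.04, 3.89 and 1.51 in Tet tcKO. The log2FC versus Cre- was −0.47 without Cre- replicate 1 and −0.31 without Tet tcKO replicate 3. Neither Tet tcKO versus Cre- (log2FC −0.70, adjusted p = 0.359) nor versus tHet (0.02, adjusted p = 0.983) passed. Grm4, a group III receptor, averaged 8.46 ± 0.888 CPM in Cre- and 8.23 ± 1.05 in tHet, against 5.32 ± 1.91 in Tet tcKO (SD, n = 3). Its Tet tcKO libraries lay below all controls, but Tet tcKO replicate 2 (7.12 CPM) and tHet replicate 3 (7.15 CPM) were nearly level. The test versus Cre- did not pass (log2FC −0.68, adjusted p = 0.247). For Grm8, also group III, and Grm3, group II, log2FC versus Cre- were −0.42 and 0.45 with adjusted p of 0.472 and 0.689. Grm6, the group III receptor by which ON bipolar cells detect photoreceptor glutamate and no member of the list, read 67.9, 92.0 and 86.7 CPM in Cre- and 35.3, 87.8 and 53.7 in Tet tcKO (log2FC −0.56, adjusted p = 0.397), with the lowest Tet tcKO library again replicate 1.

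Among the NMDA subunits, Grin3a, which encodes the glycine-binding GluN3A subunit that lowers calcium entry (chr4:49661611-49845744, minus strand), read 12.8, 14.1 and 15.9 CPM in Cre-, 13.8, 21.7 and 14.7 in tHet and 36.0, 29.8 and 19.1 in Tet tcKO. All Tet tcKO libraries were above all Cre- libraries. Grin3a rose versus Cre- (log2FC 0.92, SE 0.27, adjusted p = 0.0397) and did not pass versus tHet (0.72, SE 0.27, adjusted p = 0.131). It was called versus Cre- without CT010467.1 (1.08, adjusted p = 0.00422). Leaving out a single library raised the adjusted p above 0.05 for any Cre- library (0.0883 to 0.105), tHet replicate 1 (0.0518) and Tet tcKO replicate 1 (0.248) or 2 (0.118), as did applying no filter on low values (0.0845).

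Grin2c, the GluN2C subunit and the scarcest NMDA member, rested on 7 to 29 reads a library. It read 1.35, 1.85 and 1.96 CPM in Cre-, 1.008, 2.08 and 0.805 in tHet and 0.475, 1.05 and 0.421 in Tet tcKO, all below Cre-. The difference did not pass (log2FC −0.98, SE 0.35, adjusted p = 0.12). Grin2b, the GluN2B subunit known for early synapses, averaged 95.8 ± 10.4 CPM in Cre-, against 166 ± 55.4 CPM in Tet tcKO (log2FC 0.73, adjusted p = 0.0977), and passed without CT010467.1 (0.89, adjusted p = 0.00619). For Grin1, the obligatory subunit, Grin2a and Grin2d, the log2FC versus Cre- were −0.16, −0.22 and 0.44 with adjusted p of 0.88, 0.848 and 0.598.

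AMPA subunits, which carry fast glutamate transmission, did not pass on the deposited scale in either Tet tcKO comparison. Gria1 read 53.8, 59.7 and 60.8 CPM in Cre-, 56.7, 64.1 and 52.3 in tHet and 97.1, 86.7 and 57.2 in Tet tcKO, with replicate 3 at control level (log2FC 0.43, SE 0.22, adjusted p = 0.362). Gria3 read 63.9, 65.0 and 69.7 CPM in Cre-, 62.1, 89.7 and 82.7 in tHet and 103, 108 and 53.5 in Tet tcKO (log2FC 0.35, SE 0.25, adjusted p = 0.613). Tet tcKO replicate 3 was below all controls for Gria3, while the other Tet tcKO libraries were above all controls for both genes, and without CT010467.1 Gria1 passed (0.59, adjusted p = 0.0126) and Gria3 did not (0.51, adjusted p = 0.0954). Gria4 and Gria2, whose edited product keeps calcium out, had log2FC of 0.23 and −0.04.

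All 4 kainate subunits had log2FC above 0 versus Cre-, and none passed on the deposited scale. Grik3 read 18.5, 18.5 and 16.1 CPM in Cre-, 14.6, 22.4 and 17.0 in tHet and 36.4, 29.5 and 17.1 in Tet tcKO (log2FC 0.57, SE 0.27, adjusted p = 0.303), and Tet tcKO replicate 3 was within the control range. Grik4, a high-affinity subunit that needs a partner, read 1.82, 2.86 and 2.16 CPM in Cre-, 2.16, 3.43 and 3.41 in tHet and 6.18, 4.09 and 1.75 in Tet tcKO, from 29 to 104 reads a library (0.57, SE 0.38, adjusted p = 0.55). Its Tet tcKO libraries included both the highest and the lowest of all 9. Grik5, the other high-affinity subunit, lay above Cre- in every Tet tcKO library (42.3 ± 1.20 and 59.7 ± 13.5 CPM, log2FC 0.47, adjusted p = 0.286) and passed without CT010467.1 (0.63, adjusted p = 0.00667). Grik2 had a log2FC of 0.01. Grik1, outside the list and known in OFF bipolar cells, read 106, 145 and 131 CPM in Cre- and 51.1, 101 and 65.8 in Tet tcKO, all lower, and fell (log2FC −0.85, adjusted p = 0.0367).

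Grid1, the delta glutamate subunit that organises synapses rather than passing glutamate currents, read 20.1, 21.1 and 22.5 CPM in Cre-, 18.7, 21.1 and 15.3 in tHet and 16.4, 19.6 and 10.5 in Tet tcKO. The Tet tcKO libraries lay below Cre- by a small margin and overlapped tHet, and the difference did not pass (log2FC −0.48, SE 0.26, adjusted p = 0.383).

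GABA-A subunits, which form fast chloride channels, gave 7 positive and 2 negative log2FC versus Cre-, none past the threshold. Gabra5, the alpha 5 subunit of extrasynaptic receptors, read 2.77, 6.17 and 6.55 CPM in Cre-, 7.85, 8.83 and 3.98 in tHet and 10.2, 13.8 and 9.51 in Tet tcKO. Every Tet tcKO library exceeded every control, but the controls spread widely, and the log2FC of 1.10 (SE 0.35) had an adjusted p of 0.0651. Gm9962 overlaps its exons on the other strand. Gabrg1, the gamma 1 subunit (chr5:70751047-70842617, minus strand), read 21.3, 19.98 and 19.0 CPM in Cre-, 15.4, 21.4 and 15.5 in tHet and 54.0, 35.7 and 21.5 in Tet tcKO.

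Gabrg1 was higher in every Tet tcKO library than in every control, with Tet tcKO replicate 3 barely above the highest of them. It rose versus tHet (log2FC 0.99, SE 0.28, adjusted p = 0.039) and did not pass versus Cre- (0.77, SE 0.28, adjusted p = 0.122), and without CT010467.1 it passed versus tHet (adjusted p = 0.00608) and versus Cre- (0.0146). The rise versus tHet had an adjusted p of 0.0562 without Cre- replicate 3, 0.169 without tHet replicate 1, 0.313 without Tet tcKO replicate 1, 0.075 without Tet tcKO replicate 2 and 0.0992 with no filter on low values. Gabra3, the alpha 3 subunit, averaged 50.4 ± 10.6 CPM in Cre-, against 87.7 ± 39.9 CPM in Tet tcKO (log2FC 0.71, adjusted p = 0.183), and passed without CT010467.1 (0.87, adjusted p = 0.0385). The remaining 6, Gabra2, Gabra4, Gabrb1, Gabrb2, Gabrg3 and Gabrd, had log2FC from −0.27 to 0.32 versus Cre-. Gabra4 and Gabrb1 overlap on opposite strands, and the strand setting of the counting is not given in the sources used here.

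Both GABA-B subunits, which work as a pair of a GABA-binding and a G protein-coupling part, had Tet tcKO libraries on both sides of the controls, with replicate 3 lowest. Gabbr1 read 191, 152 and 154 CPM in Cre-, 130, 167 and 145 in tHet and 232, 198 and 118 in Tet tcKO (log2FC 0.09, 95% interval −0.41 to 0.60). Gabbr2 read 124, 101 and 101 CPM in Cre-, 83.1, 104 and 111 in tHet and 122, 131 and 61.2 in Tet tcKO (−0.12, 95% interval −0.65 to 0.41). Its sign turned without CT010467.1 (0.04) and without Tet tcKO replicate 3 (0.22).

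The other glycine receptor subunits did not follow Glra1. Glra2, the alpha 2 subunit that is prominent in immature neurons, read 15.0, 11.3 and 13.7 CPM in Cre-, 12.7, 14.3 and 11.1 in tHet and 39.1, 22.6 and 16.9 in Tet tcKO, where every library exceeded every control. Its log2FC was 0.87 (SE 0.28, adjusted p = 0.0724) versus Cre- and 0.94 (SE 0.28, adjusted p = 0.0522) versus tHet, and without CT010467.1 it passed in both (adjusted p = 0.0101 and 0.00945). Glra3 and Glrb, the beta subunit that anchors the receptor to gephyrin, had log2FC of 0.37 and −0.18 versus Cre-, with adjusted p of 0.607 and 0.876. Without CT010467.1, Glra3 passed an adjusted p of 0.05 versus tHet but not versus Cre-. Every Tet tcKO library of Glra3 was then above every control. The difference between Glra1 and Glra2 was not tested.

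Shares within a receptor family do not depend on the library total, so the ribosomal RNA gene drops out of them. They were computed per kilobase of exon over the listed members only and chosen after the values were seen, so they are given without a test. Glra1 made up 54.5% ± 5.37 (SD, n = 3) of the glycine alpha subunits in Cre- and 54.2% ± 1.37 in tHet, and 10.5%, 33.4% and 24.5% in the Tet tcKO libraries. Glra2 was at 18.4% ± 3.46, 20.7% ± 0.160 and, in Tet tcKO, 48.0%, 27.0% and 40.3%. Tet tcKO and control libraries did not overlap for either share.

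Among the GABA-A and rho members combined, the rho subunits held 66.3% ± 1.90 in Cre- and 61.3% ± 6.08 in tHet, against 6.94%, 38.4% and 32.8% in the Tet tcKO libraries. Gabra3 instead held 9.76% ± 1.34, 11.7% ± 1.74 and 26.1% ± 7.75 in Cre-, tHet and Tet tcKO. The mix thus turned from mostly rho to mostly GABA-A among these 12 members, although GABA-A subunits outside the list are not counted.

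Of the NMDA members, Grin2b held 25.04% ± 2.21 in Cre- and 26.1% ± 1.42 in tHet against 35.0% ± 0.574 in Tet tcKO, and Grin1 held 37.9% ± 1.89, 39.2% ± 2.79 and 28.8% ± 3.04. Among metabotropic members Grm7 went from 26.3% ± 1.32 in Cre- and 28.7% ± 4.202 in tHet to 43.5% ± 0.993 in Tet tcKO, and Grm8 from 32.0% ± 5.06 and 37.1% ± 4.63 to 18.7% ± 2.13. The Grm7 share was 44.4%, 42.4% and 43.6% in the Tet tcKO libraries, closer together than their CPM. Of the AMPA members, Gria1 held 19.7%, 16.1% and 17.5% in the Tet tcKO libraries, above all 6 controls (15.0% ± 0.835 in Cre-, 13.5% ± 1.06 in tHet), and Gria2 held 31.5% ± 3.62 in Cre- and 33.4% ± 2.54 in tHet, against 26.8% ± 2.89 in Tet tcKO. Gria4 was at 42.9% ± 2.20 in Cre- and 43.7% ± 0.247 in Tet tcKO.

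**Figure D5:**
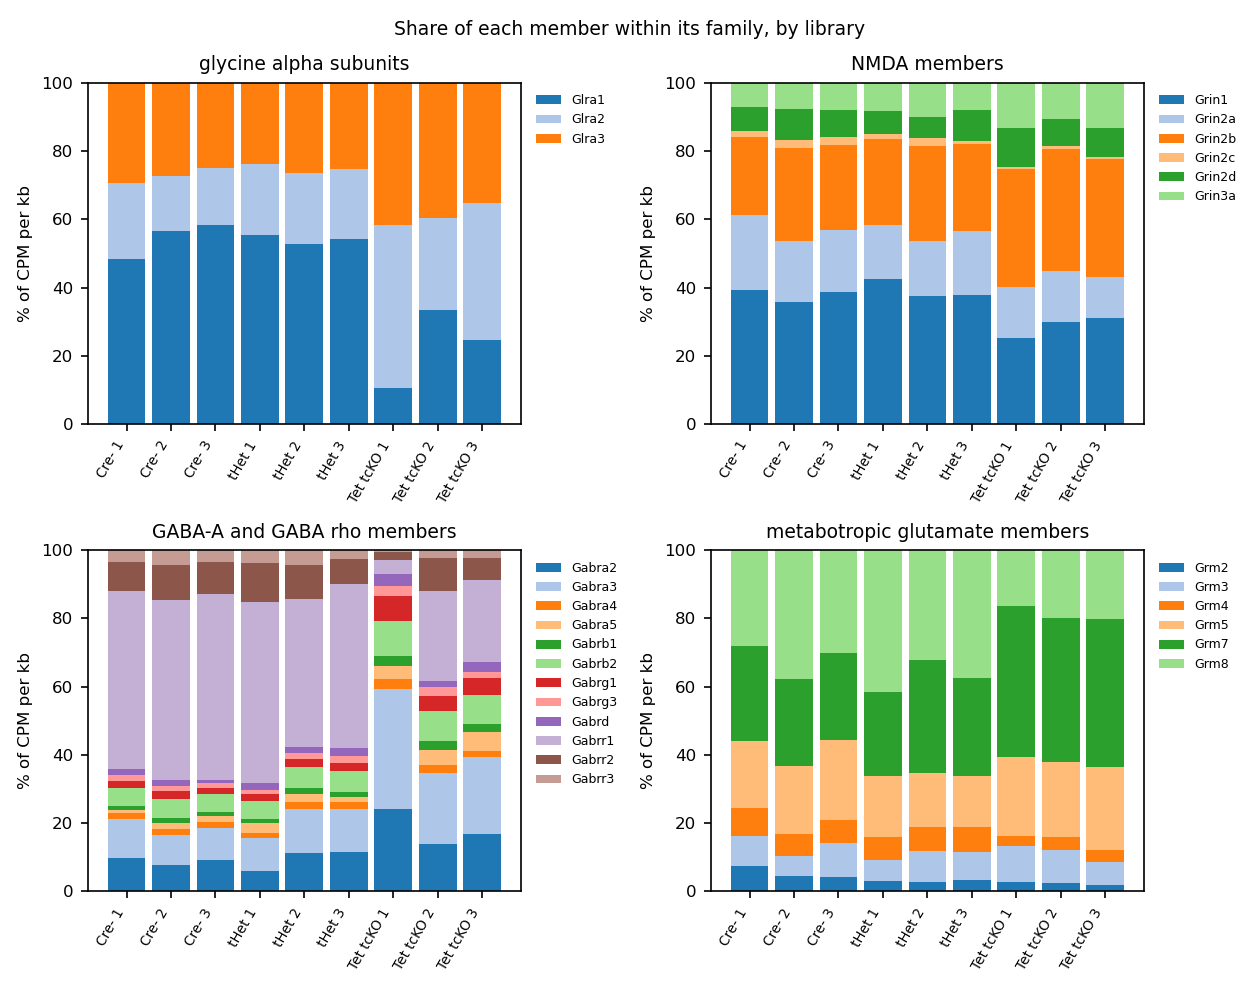
Stacked bars give each member's percentage of the CPM per kb summed over the listed members of its family, for glycine alpha, NMDA, GABA-A with GABA rho, and metabotropic glutamate members, in each of the 9 libraries. The Gabrr1 band shrinks in all 3 Tet tcKO libraries, most in replicate 1, and the Glra1 band shrinks while Glra2 widens.

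Levels before any deletion were ordered within families per kilobase in Cre-. Among AMPA subunits Gria4 (27.4 ± 2.40 CPM per kb) was above Gria2 (20.4 ± 4.42), Gria1 (9.61 ± 0.621) and Gria3 (6.71 ± 0.316), with no overlap between neighbours. Kainate subunits ran from Grik5 at 8.18 ± 0.233 down to Grik4 at 0.383 ± 0.0889 CPM per kb. Grin1 led the NMDA members (5.84 ± 0.377), and Grin2d and Grin3a overlapped. In the metabotropic family Grm8 led (6.41 ± 1.32), and Grm3, Grm4 and Grm2 overlapped in turn. Gabrr1 exceeded the next of its family, Gabra3 (12.8 ± 2.699), Gabrr2 (12.1 ± 0.265) and Gabra2 (11.8 ± 2.28), which overlapped. Glra1 (12.7 ± 2.38) and Glrb (11.0 ± 1.93) overlapped, above Glra3 and Glra2.

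No member passed the test between tHet and Cre-. Of the 39, 0 were called (0.0422% of all genes were, in either direction), 0 passed an adjusted p of 0.05 (0.0938% of all genes did) and 0 had an unadjusted p under 0.05 by limma (4.55% of all genes did). edgeR gave 0 calls and 4 members with an unadjusted p under 0.05, all lower in tHet (2.89% of all genes were). With log2FC from −0.72 (Grm2) to 0.39 (Gabra5) and standard errors from 0.22 to 0.41, differences of this size were not detectable at 3 libraries a genotype. All 3 tHet libraries lay below all Cre- libraries for 5 members, Grm2, Grm5, Gabrr1, Gabrr2 and Glra3, and above for 0, where 5.37% of all tested genes lay below and 5.78% above. For Gabrr1 the log2FC in tHet versus Cre- was −0.50 (95% interval −1.35 to 0.35).

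Genes that work with these receptors were counted by list. Of 10 tested subunits of the same families outside the 39, Grik1 fell and Gabrq, which encodes the theta GABA-A subunit, rose (log2FC 1.29, adjusted p = 0.0331) in Tet tcKO versus Cre-, and 0 were called. Among 15 auxiliary subunits of glutamate receptors, 2 rose and 1 fell. Gsg1l, an AMPA receptor partner, was called higher, at 13.4, 9.93 and 16.1 CPM in Cre- and 48.5, 30.5 and 25.2 in Tet tcKO (log2FC 1.34, adjusted p = 0.00303), Cacng8 rose (1.20, adjusted p = 0.0253) and Neto1, a kainate and NMDA receptor partner, fell (−0.91, adjusted p = 0.0332).

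Of 16 scaffolds of glutamate synapses 0 passed in either direction, with log2FC from −0.55 to 0.65, among them Dlg4 and Homer1. Of 10 at GABA and glycine synapses, Kctd12, a GABA-B partner, rose (0.98, adjusted p = 0.0355).

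Of 13 transporters 3 fell and 0 rose: Slc6a9, the glycine transporter GlyT1, was called lower, at 47.7, 57.2 and 66.0 CPM in Cre- and 16.4, 37.0 and 21.1 in Tet tcKO (log2FC −1.25, adjusted p = 0.00356), and Slc6a5, the neuronal glycine transporter, and Slc17a7, which loads glutamate into photoreceptor and bipolar vesicles, fell (−1.13, adjusted p = 0.0166, and −1.07, adjusted p = 0.0107). Of 8 enzymes of transmitter metabolism 1 rose and 1 fell. Glul, the glutamine synthetase of Müller glia, was called lower, at 1159, 840 and 1030 CPM in Cre- and 350, 514 and 301 in Tet tcKO (log2FC −1.40, adjusted p = 0.00147), and Gldc, which breaks down glycine, rose (0.81, adjusted p = 0.0349). For Gad1 and Gad2, the enzymes that make GABA, neither difference from Cre- passed. As background, 2.98% of all genes fell and 3.53% rose in this comparison.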

How the data were processed

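Total RNA of 9 pooled retina samples (3 genotypes, 3 libraries each) was sequenced. The authors deposited CPM per gene for each library, with genes identified by Ensembl ID and symbol. Per the submitters' notes, the tools were FastQC 0.11.9, MultiQC 1.19, Trim Galore 0.6.7, STAR 2.7.0f, SAMtools 1.9, HTSeq 0.11.2, deepTools 3.5, edgeR 4.2.2 and R 4.4.1, with the mm10 genome. The strand setting of the counting is not given in the sources used here. The deposited table also holds 20 columns of the authors' own comparisons (log2 fold changes and their statistics), which were not used.

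CPM steps gave whole reads for all values checked (100% within 0.05 of a whole number), so depth was recovered, at 9627927 to 21108256 reads a library. Genes that reached 0.5 CPM in 3 or more libraries were fitted over all 9 libraries with limma 3.58.1 (R 4.3.3) on log2(CPM + 0.5), with Benjamini-Hochberg adjustment over all 21330 genes. Fold changes are on the log2(CPM + 0.5) scale, which understates changes of low genes. The scripts were tested on simulated data. Alternatives were pseudocounts of 0.1 and 1, other filters, TMM scaling, totals without CT010467.1, edgeR 4.0.16 (quasi-likelihood) on recovered reads, a replicate block and leaving out each library. Libraries of 1 genotype are separate samples in the labels. Figures were drawn with matplotlib 3.10.9 under Python 3.11.15.

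Members and lists were chosen with earlier results of these data known. Values in every library are given for members called in any comparison or past an adjusted p of 0.05 in a Tet tcKO comparison, and for the 2 members of each class with the largest absolute log2FC versus Cre-. Genes outside the list were named where called or as examples, the latter chosen after their values were seen. Exon lengths and positions came from GENCODE release 21 for mouse, which held 55141 of the 55487 gene IDs. Upstream sequences came from RefSeq (GRCm38.p6), where 29 of the 39 members were matched.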

Additional observations from a re-analysis of the deposited data

How the results depend on the processing

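With 3 libraries a genotype and the spread of Tet tcKO replicate 3, counts of members depended on the scaling. In Tet tcKO versus Cre-, 3 members were called; the number was 1 with no filter on low values, 5 with the replicate block, 6 at an adjusted p under 0.05 with no fold threshold, and 1 to 5 when single libraries were left out. Members past an adjusted p of 0.05 there numbered 6, against 12 under TMM scaling, 14 without CT010467.1, 10 by edgeR, 10 with the replicate block, and 2 to 14 with a library left out. In Tet tcKO versus tHet, 1 was called, against 0 with no filter, 2 under TMM scaling, 4 without CT010467.1, 2 by edgeR, 4 with the replicate block, 6 at an adjusted p under 0.05 and 1 to 4 with a library left out. The 6 past 0.05 there became 1 with no filter, 12 under TMM scaling, 12 without CT010467.1, 10 by edgeR, 11 with the replicate block and 1 to 12 with a library left out. With no filter more genes are tested, and the cause of the other shifts was not tested. tHet versus Cre- gave 0 members under each of these settings.

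Of 646 alternative values for the 19 members given by library, 583 kept their direction and side of the threshold, 33 newly passed it, 17 no longer passed and 13 changed sign. With single libraries left out, log2FC that changed sign ranged as follows. Versus Cre-, Gabbr1 ran from −0.11 (without Tet tcKO replicate 1) to 0.38 and Gabbr2 from −0.32 to 0.22 (without Tet tcKO replicate 3), and Gabbr2 was at 0.0397 without CT010467.1. Versus tHet, Gria3 ran from −0.0559 to 0.45, Grik4 from −0.10 to 0.68, Grm2 from −0.18 to 0.41 and Gabbr2 from −0.19 to 0.36. The labels do not pair libraries by replicate number, and the replicate block is given here alone. Deviations of same-numbered libraries correlated at −0.35 to 0.56 (mean 0.11 over 9 pairs). For libraries of different number the range was −0.57 to 0.50 (mean −0.05 over 18 pairs). Whether same-numbered libraries shared a batch was not tested.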
